A study of Mus musculus with 7 samples.

Results

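The 76 genes described here are named for proteins of the mitochondrial ribosome. They are all genes with an Mrpl or Mrps symbol followed by a number that had a probe set of their own, out of 18193 genes with a probe set of 1 gene symbol on Affymetrix mouse whole-genome arrays. The cells were macrophages from papain-digested mouse brain, sorted on GFP and on the macrophage surface protein F4/80. The design sets 3 normal brain arrays against 4 arrays of GL261 tumours. GL261 cells, a glioma line of the mouse, had been injected into the brains of C57/Bl6 mice with GFP bone marrow and left to grow for 21 days. Normal brain came from C57/Bl6 mice at an age of 8 weeks. Whether GFP marrow had also been given to the normal mice is not stated, so the sort may have selected different macrophages in the groups. The labels also do not say whether arrays came from separate mice, and the p-values then measure only the spread between these arrays.

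Mitochondria keep a small genome, and the mitochondrial ribosome translates the few messenger RNAs it encodes, all of them for subunits of the respiratory chain and ATP synthase. The ribosomal RNAs come from that genome, whereas every protein of the ribosome is encoded in the nucleus, made in the cytosol and imported. The small subunit holds the messenger RNA and decodes it, and the large subunit joins amino acids and passes the growing chain through an exit tunnel to the inner membrane. Some of the proteins have a counterpart in bacterial ribosomes and the others are found in mitochondria only.

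The values are log2(signal + 6), where signal is the linear MAS5 intensity of a probe set, and of several probe sets for a gene the one with the highest mean was kept. All 76 genes passed the filter on low signal and lay above the background level of control probe sets on all 7 arrays, with a lowest single value of 6.89. Across arrays the background level was 4.19 to 4.70, and the median signal of all probe sets was 49.5 to 73.0. The 3'/5' signal ratio of Gapdh, a measure of RNA integrity, averaged 2.41 ± 0.0243 in normal brain (SD, n = 3) against 1.75 ± 0.127 for GL261 (SD, n = 4). The exact two-sided permutation p was 0.0286, the smallest that the 35 splits allow, and the part of this ratio in the results was not tested. The same ratio of actin was 1.57 ± 0.116 for normal brain (SD, n = 3) and 1.42 ± 0.0715 for GL261 (SD, n = 4). Its two-sided exact permutation p was 0.143. All 8 macrophage markers, Adgre1 (F4/80) among them, were above background on every array and limma called none of them. GL261 replicate 2 stood apart from the other tumour arrays in red cell markers, with a summed signal of 4439 against 194 at most. It also lay above the others in the mean log2 value of endothelial markers (0.49 against -0.96 at most, relative to the 7-array means), microglia markers (0.12 against -0.41), neutrophil markers (-0.12 against -1.12) and B cell markers (-0.32 against -1.22). In summed signal the neutrophil markers did not set it apart, with 21523 against 22805 in replicate 3 and 21218 in replicate 4.

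Most genes of the mitochondrial ribosome had higher values in GL261, by small amounts. Of the 76, 63 (82.9%) had a log2 fold change above 0, against 52.8% of all 12125 tested genes. Their median log2 fold change was 0.39, a 1.31-fold difference, against 0.04 over all tested genes. The quartiles were 0.16 and 0.61. Tested one by one with limma and Benjamini-Hochberg adjustment over all tested genes, 9 of the 76 rose at an adjusted p under 0.05 (11.8%), where 5.92% of all tested genes rose and 10.1% were called in either direction. With limma 0 of the 76 fell, against 4.2% of all tested genes. At an unadjusted p under 0.05, 26 of the 76 were higher and 1 was lower, against 15.2% and 10.9% of all tested genes. The GL261 arrays lay wholly above the normal brain arrays for 25 of the 76 (32.9%) and wholly below for 1, where 13.1% and 10.4% of all tested genes did so. In bulk samples, more RNA of a gene per cell and more cells of a type that express it cannot be told apart.

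**Figure D1:**
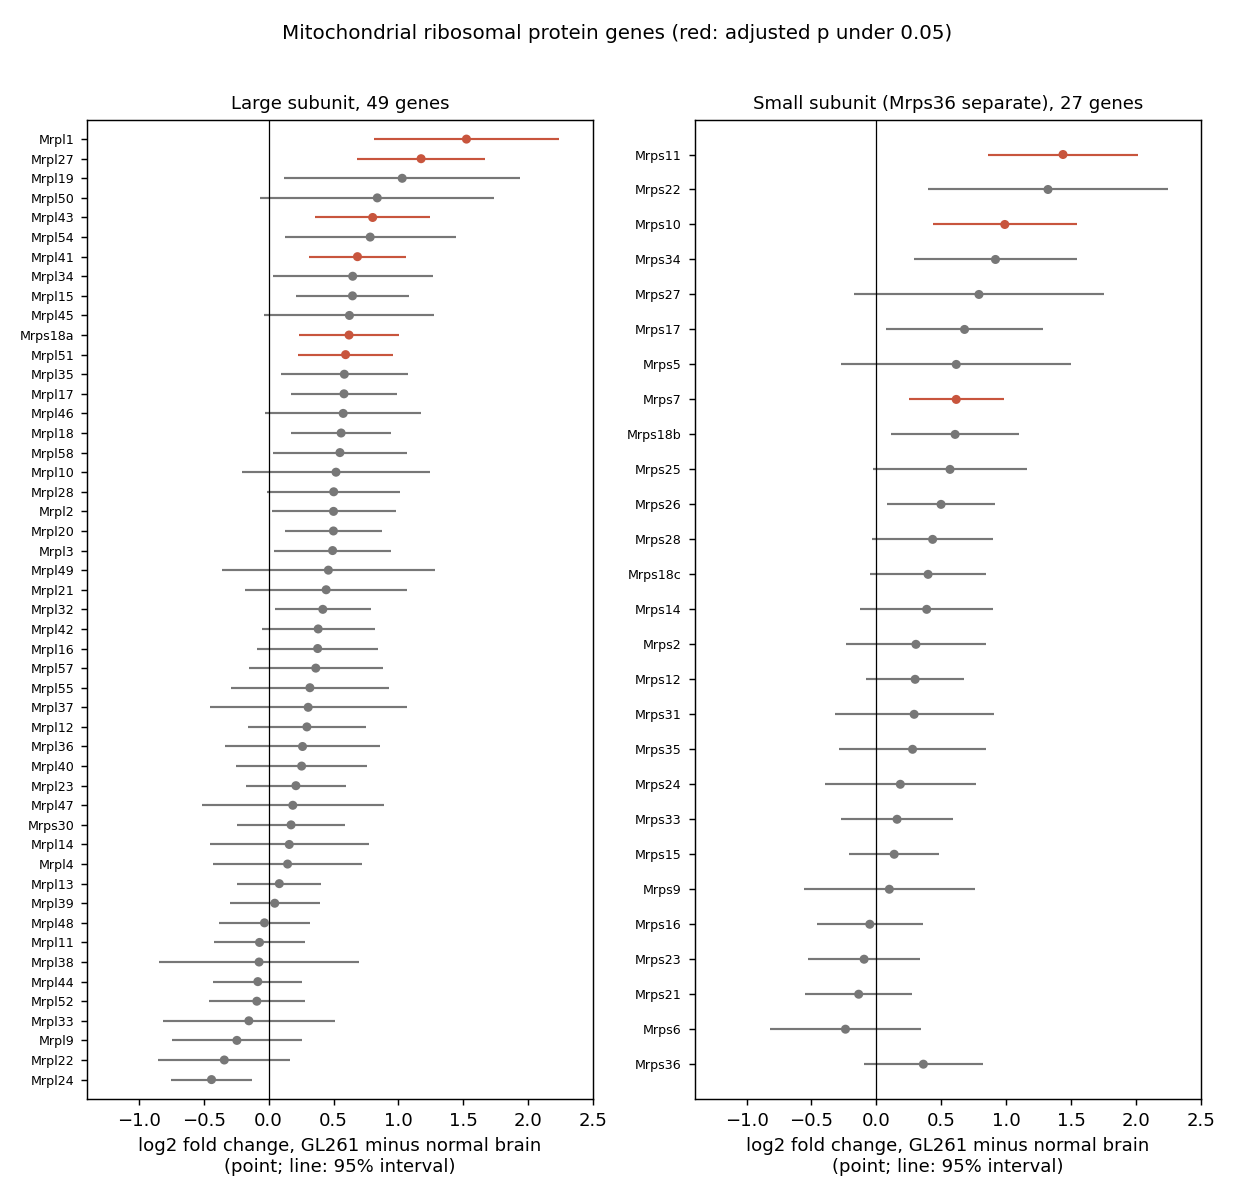
Log2 fold change (GL261 minus normal brain) of each of the 76 genes with its 95% interval, large subunit on the left and small subunit on the right, with Mrps36 at the bottom as the gene placed in neither. The points run from -0.44 for Mrpl24 to 1.52 for Mrpl1, 63 lie right of 0, and the 9 red genes had an adjusted p under 0.05.

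The count of genes that rose rested on single arrays, whereas the median held. It fell to 2 when GL261 replicate 3 was left out and to 3 when replicate 4 was. Leaving out normal brain replicate 3 gave 4, and leaving out normal brain replicate 2 or GL261 replicate 1 gave 5 each. Without normal brain replicate 1 or GL261 replicate 2 it was 7. Among all tested genes, those called higher numbered 305 to 761 in these 7 fits and 718 with all arrays. Over the 7 fits that each left out an array, 62 to 65 of the 76 genes had a fold change above 0, with some genes changing sign between fits, and the median was 0.31 to 0.47.

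The mean log2 value of the 76 genes was 10.17, 10.18 and 10.07 in normal brain replicates 1 to 3. It was 10.45, 10.44, 10.71 and 10.57 in GL261 replicates 1 to 4, so the groups did not overlap. These average to 10.14 ± 0.06 for normal brain (SD, n = 3) and 10.54 ± 0.13 for GL261 (SD, n = 4). Within GL261, replicate 3 stood highest: it held the highest of the 4 values for 39 of the 76 genes and the lowest for 4. Over all tested genes, replicate 3 was the highest GL261 array for 22.9%. GL261 replicates 1 and 2 held the lowest value for 28 and 25 of the 76. Set against the mean of all 7 arrays, the 76 genes averaged 0.34 in replicate 3 and 0.20 in replicate 4, but 0.08 and 0.07 in replicates 1 and 2. Those last values are near the averages of all tested genes on the same arrays, 0.07 and 0.06. In normal brain the 76 genes averaged -0.20, -0.19 and -0.30, below the averages of all tested genes there, which were 0.07, -0.08 and -0.12.

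**Figure D2:**
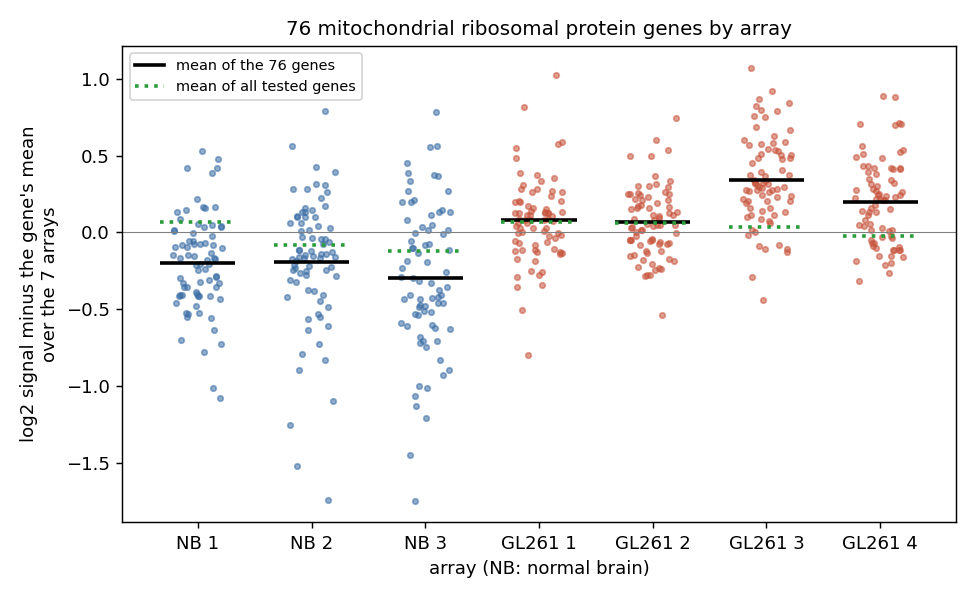
Each point is 1 of the 76 genes on 1 array, as its log2 value minus its mean over the 7 arrays, with the mean of the 76 (black bar) and of all tested genes (dotted green bar). The black bars lie between -0.30 and -0.19 in normal brain and between 0.07 and 0.34 in GL261, with GL261 replicate 3 highest.

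Of the genes that rose, 2 encode large subunit proteins with a bacterial counterpart. Mrpl1 forms part of the L1 stalk, where spent transfer RNA leaves the ribosome. Its log2 values were 9.33, 9.30 and 7.99 in normal brain and 10.29, 10.04, 10.61 and 10.63 in GL261. Normal brain replicate 3 was far below the other arrays, and the groups did not overlap. Mrpl1 rose by 1.52 (SE 0.33, adjusted p = 0.0142), or 2.87-fold, the largest change of the 76, and without GL261 replicate 3 its adjusted p was 0.0541. Mrpl27 is the counterpart of a bacterial protein that reaches the site of peptide bond formation. Its log2 values were 9.01, 9.86 and 9.38 in normal brain and 10.42, 10.59, 10.76 and 10.60 in GL261. All GL261 arrays lay within 0.34 of each other and above every normal brain array. Mrpl27 rose by 1.17 (SE 0.22, adjusted p = 0.00882) and kept its call in all 7 fits without 1 array, with adjusted p up to 0.0383.

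Small subunit proteins with a bacterial counterpart gave 3 of the genes that rose. Mrps11 belongs to the platform of the small subunit. Its log2 values were 8.88, 8.21 and 8.39 in normal brain and 9.63, 9.92, 10.16 and 10.03 in GL261. The lowest GL261 array lay 0.75 above the highest normal brain array. Mrps11 rose by 1.44 (SE 0.27, adjusted p = 0.00744), or 2.71-fold, and its adjusted p stayed at or under 0.0369 in the 7 fits without 1 array. Mrps10 is a protein of the head of the small subunit. Its log2 values were 9.68, 8.86 and 9.04 in normal brain and 10.02, 10.26, 10.51 and 9.94 in GL261. The groups were only 0.26 apart, with normal brain replicate 1 nearest to GL261. Mrps10 rose by 0.99 (SE 0.26, adjusted p = 0.0314), a call that held in 1 of the 7 fits with an array left out, that without normal brain replicate 1. Mrps7, also of the head, had log2 values of 10.09, 10.15 and 9.96 in normal brain and of 10.59, 10.55, 10.74 and 10.84 in GL261. Both groups were tight and lay apart. Mrps7 rose by 0.61 (SE 0.17, adjusted p = 0.0395), and with 1 array fewer its adjusted p was 0.0556 to 0.109.

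The other genes that rose encode large subunit proteins found in mitochondria only. Mrpl43 had log2 values of 10.51, 10.22 and 10.03 in normal brain and of 10.84, 10.80, 11.47 and 11.11 in GL261. It rose by 0.80 (SE 0.20, adjusted p = 0.0293), with GL261 replicate 3 the highest array. Mrpl41 had log2 values of 11.58, 11.67 and 11.28 in normal brain and of 12.03, 11.95, 12.49 and 12.31 in GL261. It rose by 0.68 (SE 0.17, adjusted p = 0.0273), again highest in GL261 replicate 3. Mrpl51 had log2 values of 11.79, 12.04 and 11.78 in normal brain and of 12.45, 12.09, 12.58 and 12.73 in GL261. Here GL261 replicate 2 almost touched normal brain replicate 2, and Mrpl51 rose by 0.59 (SE 0.17, adjusted p = 0.0453). Without 1 array the calls of Mrpl43, Mrpl41 and Mrpl51 held in 3, 4 and 1 of the 7 fits, with adjusted p up to 0.0897, 0.0863 and 0.119.

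Mrps18a carries a small subunit name, but its protein lies in the large subunit. It is 1 of 3 paralogues of a single bacterial protein. Its log2 values were 9.80, 9.96 and 9.80 in normal brain and 10.32, 10.51, 10.62 and 10.45 in GL261. The groups were each within 0.30 and did not overlap. Mrps18a rose by 0.62 (SE 0.18, adjusted p = 0.0449), and lost its call in all 7 fits without 1 array (adjusted p = 0.0574 to 0.132). Mrps18b, a paralogue of the small subunit found in mitochondria only, differed by 0.61 on the log2 scale (95% interval 0.12 to 1.10, adjusted p = 0.109). Mrps18c, the third paralogue and the one that takes the place of the bacterial protein, differed by 0.40 (95% interval -0.05 to 0.84, adjusted p = 0.243). Mrps18a and Mrps18b, though related to that protein, are counted here with the proteins of mitochondria only, and Mrps18c with those that have a bacterial counterpart. The intervals of the 3 paralogues overlap, and differences between them were not tested.

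**Figure D3:**
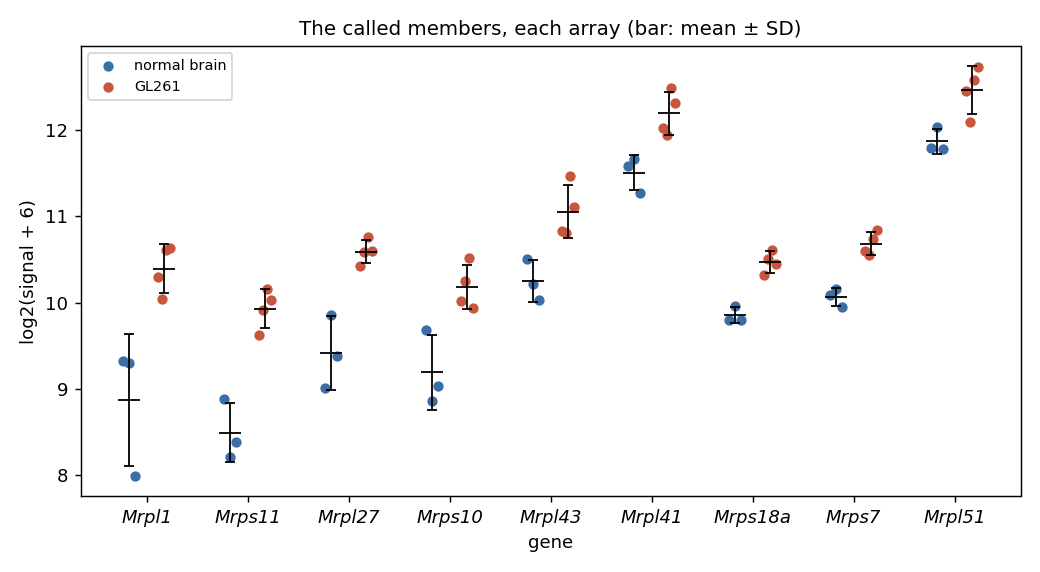
Log2(signal + 6) of the 9 genes called higher in GL261 on each array, normal brain in blue and GL261 in red, with the mean and SD of each group (n = 3 and n = 4). The red points lie above the blue points for all 9 genes, with the widest spread among the blue points of Mrpl1 (SD 0.76).

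Promoters of the genes are shown because the 76 genes differed mostly in 1 direction. Promoters of RefSeq genes on GRCm38.p6, from 250 bases before to 50 after each start site, were at hand for 67 of the 76. They were searched on both strands for the core letters GCATGCG of NRF1, CCGGAAG of ETS factors such as GABPA, and AAGATGG of YY1, all factors known for mitochondrial genes in the nucleus. The E-box CACGTG and the TATA box TATAAA were searched as well, and no motif holds another. The ETS core was found in promoters of 25 of the 67 genes (37.3%), against 19.6% of 9764 other tested genes and 9.93% of all 27025 genes with a promoter. The YY1 core was found in 13 (19.4%), against 8.34% of other tested genes and 7.28% of all. The NRF1 core was found in 8 (11.9%, against 7.09% and 4.01%). The E-box was found in 5 (7.46%, against 11.7% and 8.09%) and the TATA box in 5 (7.46%, against 9.06% and 15.7%). These are matches of letters, not binding sites. Median log2 fold changes were 0.49 for the genes with an ETS core and 0.37 for those without. The medians with and without were 0.42 and 0.38 for the YY1 core, 0.23 and 0.39 for NRF1, 0.40 and 0.38 for the E-box, and 0.38 and 0.39 for the TATA box. None of these differences was tested. Of the 9 genes that rose, 4 had the ETS core, 3 the YY1 core and 0 any of the other 3 motifs. The 120 bases that end just before the start site follow in 5′ to 3′ order for the 5 of them whose match lies there, with the matches in capitals. They are ETS cores in the first 4 sequences and the YY1 core on the opposite strand in Mrps11.
Mrpl27 (chr11:94653671-94653790, plus strand): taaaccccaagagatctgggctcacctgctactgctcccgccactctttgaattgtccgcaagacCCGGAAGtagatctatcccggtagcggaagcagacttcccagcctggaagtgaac
Mrpl43 (chr19:45006443-45006562, minus strand): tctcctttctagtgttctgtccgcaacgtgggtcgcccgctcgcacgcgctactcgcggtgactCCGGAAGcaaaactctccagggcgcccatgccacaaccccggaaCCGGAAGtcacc
Mrpl51 (chr6:125192080-125192199, plus strand): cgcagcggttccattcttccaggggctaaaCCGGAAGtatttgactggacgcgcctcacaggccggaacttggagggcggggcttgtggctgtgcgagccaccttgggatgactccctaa
Mrps18a (chr17:46110884-46111003, plus strand): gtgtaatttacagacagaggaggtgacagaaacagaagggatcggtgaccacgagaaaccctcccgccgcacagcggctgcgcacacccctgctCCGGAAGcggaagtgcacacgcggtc
Mrps11 (chr7:78783011-78783130, plus strand): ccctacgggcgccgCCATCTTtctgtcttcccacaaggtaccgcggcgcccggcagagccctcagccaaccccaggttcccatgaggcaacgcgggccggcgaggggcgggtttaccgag
In Mrpl43 the ETS core occurs 2 times, and in Mrps18a and Mrpl43 a match lies within the last 26 bases before the start. The gene with the largest change, Mrpl1, had none of the 5 motifs in its window.

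Of the genes with the largest differences, Mrps22 and Mrpl19 had fold changes above 2 that were not called. Mrps22, a small subunit protein of mitochondria only, had log2 values of 8.73, 6.89 and 8.03 in normal brain and of 9.46, 9.38, 9.11 and 8.86 in GL261. Its normal brain arrays were spread over 1.83, and its log2 fold change of 1.32 (SE 0.42) had an adjusted p of 0.0693, or 0.0288 without normal brain replicate 1. Without normal brain replicate 2 the difference was 0.83 (adjusted p = 0.161). Mrpl19, a large subunit protein at the interface of the subunits, had log2 values of 8.44, 8.42 and 7.13 in normal brain and of 8.96, 8.92, 9.66 and 8.56 in GL261. The groups were only 0.12 apart. The difference was 1.03 (SE 0.42), with an adjusted p of 0.140, and it was 0.60 without normal brain replicate 3 and 0.45 as the mean of all probe sets.

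The 13 genes with lower values in GL261 differed little. Mrpl24, a large subunit protein near the exit tunnel, had log2 values of 12.27, 12.54 and 12.71 in normal brain and of 11.98, 12.08, 12.16 and 12.05 in GL261. It was the only one of the 76 whose GL261 arrays all lay below the normal brain arrays. Its log2 fold change was -0.44 (SE 0.14, adjusted p = 0.0756), and it was called lower without normal brain replicate 1 (adjusted p = 0.0461) and under quantile normalization (adjusted p = 0.0325). Mrpl22, which lines the exit tunnel, was at -0.34 (SE 0.23, adjusted p = 0.386). Mrpl9 and Mrps6 were at -0.24 each, with adjusted p of 0.540 and 0.612. Mrpl33 was at -0.15 and Mrps21 at -0.14 (adjusted p = 0.797 and 0.689). The lower genes named here all have bacterial counterparts, but Mrpl48, Mrpl38, Mrpl44, Mrpl52 and Mrps23, also below 0, are of mitochondria only.

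Large and small subunit genes had similar medians, and no difference between them was tested. Of 49 large subunit genes 40 had a fold change above 0, with a median of 0.42, and 6 rose (1 without GL261 replicate 3, 2 without replicate 4 or normal brain replicate 3). Of 26 small subunit genes 22 had a fold change above 0, with a median of 0.39, and 3 rose (1 without GL261 replicate 1, 2, 3 or 4 or normal brain replicate 2, 2 without normal brain replicate 3). By origin, 2 of 28 large subunit genes with a bacterial counterpart rose (median 0.43, and 1 without GL261 replicate 3) and 4 of 20 found in mitochondria only (median 0.42, and 0 without GL261 replicate 3 or 4 or normal brain replicate 3). In the small subunit, 3 of 16 with a bacterial counterpart rose (median 0.35). This count was 2 without normal brain replicate 1 and 1 without any other single array. With limma 0 of 10 found in mitochondria only rose (median 0.53), of which 4 were higher at an unadjusted p under 0.05. Mrps36, which was named as a ribosomal protein but belongs to the oxoglutarate dehydrogenase complex, was placed in neither subunit and stood at 0.36 (adjusted p = 0.302).

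Fold changes were smaller where the mean signal was higher. Across the 76 genes, which are not independent replicates, Spearman's rho between log2 fold change and mean log2 signal was -0.47, and over all tested genes it was -0.04. The median was 0.55 in the 26 genes of lowest signal, 0.43 in the middle 25 and 0.17 in the 25 of highest signal. Other genes in the same ranges of signal had medians of 0.10, 0.10 and -0.02. Among those of highest signal 16 of 25 genes had a fold change above 0, against 47.9% of other genes.

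Several genes had further probe sets, which can detect other transcript ends or fit the gene poorly. Of 156 probe sets of the 76 genes 135 passed the filter, and 59 of these were not the one kept for its gene. Of those 59, 39 had a fold change above 0, with a median of 0.20, and 3 were called higher and 0 lower by limma when every probe set was tested by itself. Of the 28 with a mean log2 signal above 8, 21 had a fold change above 0 (median 0.26), and of the 31 weaker ones 18 did (median 0.06). The 3 called were of Mrpl41 (0.86, adjusted p = 0.0280), Mrpl3 (1.42, adjusted p = 0.0454) and Mrps23 (1.33, adjusted p = 0.0270). Among the 34 genes with another tested probe set, 19 had a probe set opposite in direction to the kept one. The kept probe set of Mrps23, a small subunit gene of mitochondria only, was at -0.09 (SE 0.20), so its probe sets disagreed. For Mrps11 the other probe set, at a mean log2 signal of 5.78, was at -1.82 (SE 0.65, adjusted p = 0.119), opposite to the kept one. For Mrpl51 the other probe sets were at -1.51 (adjusted p = 0.173) and -0.09 (adjusted p = 0.960). When all probe sets entered the test, the kept probe sets of Mrpl51 (adjusted p = 0.0601), Mrps7 (0.0578) and Mrps18a (0.0631) lost their calls, and those of the other 6 genes that rose did not. With the mean of all probe sets per gene, Mrps11 was at -0.19 and Mrpl51 at -0.34, and 3 of the 76 genes were called higher.

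**Figure D4:**
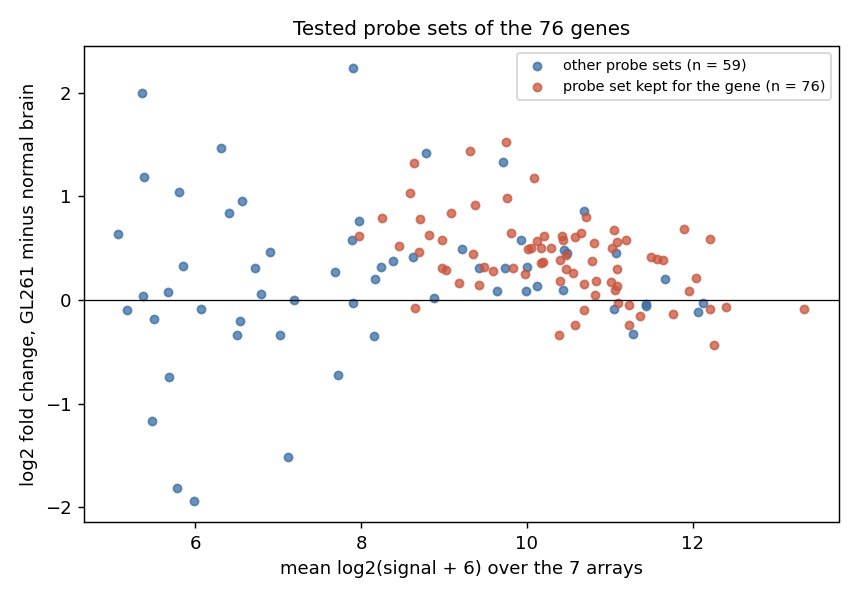
Log2 fold change of the 135 tested probe sets of the 76 genes against their mean log2 signal, with the probe set kept for each gene in red and the others in blue. Above a mean signal of 8 most points of both colours lie above 0, and below 8 the blue points scatter from -1.94 to 2.24.

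Calls among other genes of mitochondrial translation were near the 5.92% of all tested genes called higher. In the lists with a call, the shares were 4.17% for ribosome assembly, 6.25% for translation factors and 4.76% for transfer RNA charging. The medians of the first 3 lists below were near that of the Mrpl and Mrps genes. Of 5 tested proteins that belong to or bind this ribosome under other names, limma called 0, and 5 had a fold change above 0 (median 0.32). The small subunit protein Chchd1 was the only one at an unadjusted p under 0.05 (log2 fold change 0.62, adjusted p = 0.175). Oxa1l, the insertase that receives new chains at the inner membrane, was at 0.47 (adjusted p = 0.196). Of 24 genes of ribosome assembly and rRNA modification 1 rose, 0 fell and 16 had a fold change above 0 (median 0.32). It was Ddx28, an RNA helicase of large subunit assembly, by 1.73 (SE 0.33, adjusted p = 0.00870). Of 16 translation factors and related genes 1 rose, 1 fell and 11 had a fold change above 0 (median 0.33). Mief1, whose transcript also encodes a small protein of ribosome assembly, rose by 0.66 (adjusted p = 0.0470). Metap1d, the mitochondrial methionine aminopeptidase, fell by 0.81 (adjusted p = 0.0396). Mief1 lost its call in each of the 7 fits without 1 array, and no gene of this list fell in 5 of those fits. Of 21 genes that charge mitochondrial transfer RNA 1 rose, with a median of -0.04. It was Kars, which serves the cytosol as well, by 0.85 (adjusted p = 0.0174), and without GL261 replicate 3 no gene of this list rose.

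Of 33 genes of mitochondrial DNA upkeep, transcription and RNA processing 1 rose (3.03%, against 5.92% of all tested genes) and 0 fell, with a median of -0.01. The DNA topoisomerase Top1mt rose by 2.03 (SE 0.49, adjusted p = 0.0245), and no gene of this list rose without normal brain replicate 3 or GL261 replicate 1, 3 or 4. Of 25 genes of protein import 2 rose (8%) and 0 fell, with a median of 0.10. The count was 1 without GL261 replicate 3 or 4 and 0 under median centring, and without normal brain replicate 1 1 gene fell. Both are channel subunits of the inner membrane translocase. Timm17a rose by 0.75 (SE 0.17, adjusted p = 0.0170) and Timm23 by 0.70 (SE 0.15, adjusted p = 0.0148). Of 11 tested nuclear regulators of mitochondrial genes 0 were called by limma and 0 had an unadjusted p under 0.05 (median 0.07). Gabpa, an ETS factor, was at 0.39 (SE 0.19, adjusted p = 0.217) and Ppargc1b, a coactivator, at 0.94 (SE 0.49, adjusted p = 0.250).

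The respiratory chain had a smaller median than the mitochondrial ribosome but a similar share of calls. The cytosolic ribosome had a median below 0, and no difference between these families was tested. Of 77 nuclear genes of the respiratory chain and ATP synthase, which include partners of the proteins made in mitochondria, 54 had a fold change above 0 (median 0.19), 8 rose (10.4%) and 0 fell. For 22 of the 77 the GL261 arrays lay wholly above normal brain, and 23 were higher at an unadjusted p under 0.05. Of all tested genes 13.1% and 15.2% did so. Against the 7-array means they averaged -0.05, -0.05, 0.20 and 0.21 in GL261 replicates 1 to 4, again highest in replicates 3 and 4. The count was 2 without GL261 replicate 3, 3 without replicate 4, 4 without replicate 1 and 5 without normal brain replicate 1 or 2, and it was 0 under median centring. The ATP synthase gene Atp5md rose by 0.88 (adjusted p = 0.0101), Sdhb of complex II by 0.82 (adjusted p = 0.0142) and Ndufb2 of complex I by 0.69 (adjusted p = 0.0405). Of 48 tested genes of the cytosolic ribosome, the machine that makes most cell proteins, 6 had a fold change above 0, with a median of -0.28. Limma called 0 of them, 3 were lower at an unadjusted p under 0.05, and under quantile normalization the median was -0.0012 with 23 of 48 above 0. The smallest p-values were those of Rps14 (-0.51, adjusted p = 0.164) and Rps18 (-0.48, adjusted p = 0.178), both of the small subunit. Quantile normalization gave the mitochondrial ribosome a median of 0.37. In GL261 replicates 1 to 4 the cytosolic ribosome averaged -0.34, -0.27, 0.12 and 0.09 against the 7-array means, so replicates 3 and 4 were the higher arrays there too.

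**Figure D5:**
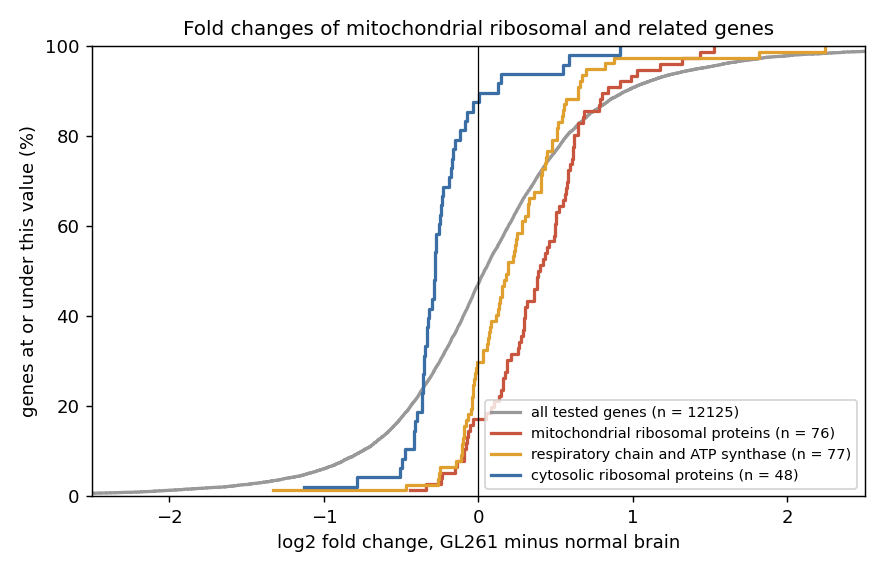
Share of genes (%) at or under each log2 fold change (GL261 minus normal brain) for all tested genes, the mitochondrial ribosome, the respiratory chain with ATP synthase, and the cytosolic ribosome. The red curve of the mitochondrial ribosome crosses 50% at 0.39, the orange one of the respiratory chain at 0.19, the grey one of all tested genes at 0.04 and the blue one of the cytosolic ribosome at -0.28.

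Markers of other cells moved with the groups, and their part in the higher values was not tested. Of 7 tested markers of cycling cells 4 rose (2 without GL261 replicate 2 or 3), with a summed signal of 6854 to 8596 in normal brain and 11058 to 18282 in GL261. In GL261 replicates 1 to 4 the cycling markers summed to 11316, 18282, 15410 and 11058, highest in replicate 2 and next in replicate 3. The mitochondrial ribosome was highest in replicate 3. Of 5 tested oligodendrocyte precursor or glioma markers 4 rose, and their summed signal was at most 260.3 in normal brain and at least 927 in GL261. So did 3 of 7 T or NK cell markers (2500 to 3358 and 4179 to 7362) and 3 of 6 pericyte or fibroblast markers (1 without normal brain replicate 1 or GL261 replicate 2, 3 or 4; 496 to 1732 and 2441 to 4055). All 5 tested microglia markers fell (3 without normal brain replicate 3 or GL261 replicate 1 or 4), with summed signals of 17715 to 21239 and 7814 to 11274. The 4 tested B cell markers (4003 to 5134 and 662 to 1304) and the 6 neutrophil markers (39599 to 50865 and 16416 to 22805) fell as well, as did 3 of 6 endothelial markers (2493 to 3465 and 453 to 1819). Of 2 tested red cell markers 2 fell (1 without normal brain replicate 3 or GL261 replicate 3 or 4). The macrophage markers summed to 63474, 69120 and 80150 in normal brain and to 54633, 53421, 74037 and 72702 in GL261. Between the groups these sums overlapped, and within GL261 they were higher in replicates 3 and 4, as the mitochondrial ribosome genes were. The T or NK cell markers summed to 5954, 4179, 6906 and 7362 in GL261 replicates 1 to 4, highest in replicates 3 and 4. In the same order the oligodendrocyte precursor or glioma markers summed to 950, 1578, 927 and 1350. The pericyte or fibroblast markers summed to 2771, 4055, 3352 and 2441. Both of these lists were highest in replicate 2. All of these lists lay above normal brain on all 4 GL261 arrays, as did the cycling markers.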

How the data were processed

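Macrophages from normal brain (3 arrays) and GL261 tumours (4 arrays) were compared. The authors deposited linear signal intensities, 1 per probe set and array, made with MAS5 per the submitters' processing notes. Its version and the genome build: not given in the sources used here. The mean without the lowest and highest 2% was about 500 on every array, so no further scaling was applied.

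Genes were named from the array's probe table, and all 76 members matched RefSeq gene IDs. Probe sets with several symbols were left out, which removes Mrpl30 and Mrpl53. Values were taken as log2(signal + 6), 6 being the 20th percentile of all values. Genes with a mean above the 40th percentile (4.93) were tested with limma 3.58.1 in R 4.3.3, with variances that follow the signal, and adjusted over 12125 genes. Background was the 95th percentile of 27 Bacillus control probe sets. The procedure was tested on simulated data. Named members were those called, the 6 largest differences in each direction, the Mrps18 paralogues and genes whose probe sets disagreed in direction with a call. In other lists they were up to 3 called genes per direction, or those with the smallest p. Mrps36 and Mrpl3 were added after their values were seen. The members, lists and settings were chosen with earlier results of these data known. Alternatives were other pseudocounts, filters, scalings, variance models, array weights, probe set rules, the replicate number as a block and leaving out arrays.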

Additional observations from a re-analysis of the deposited data

How the results depend on the processing

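The median log2 fold change of the 76 genes stayed between 0.30 and 0.47 in all alternatives. Genes called higher numbered 9 as reported and 2 to 7 without 1 array. They numbered 5 without a filter on low signal and 11 with a filter at the 60th percentile. They were 9 with either other pseudocount, 8 with every probe set tested by itself, 7 under quantile normalization and 4 under median centring. Array quality weights gave 4 and the mean of all probe sets 3. Variances that do not follow the signal gave 2 and the replicate number as a block 3. Leaving out normal brain replicate 1 and GL261 replicate 2 together gave 6. Apart from the fits without 1 array, counts over all tested genes are not given here, so a general change in calls cannot be told apart. Over all tested genes, same-numbered arrays of the groups did not deviate together (correlations of 0.08, -0.01 and 0.03), so the numbers were not taken as pairs. The cytosolic ribosomal genes did rank replicates 1 to 3 alike in both groups. Against the 7-array means they averaged 0.0016, 0.10 and 0.30 in normal brain and -0.34, -0.27 and 0.12 in GL261. Normal brain has no replicate 4, so fold changes with the replicate block were the same as those without GL261 replicate 4. With the block 24 of the 48 cytosolic ribosomal genes were called lower, against 0 in the 7 fits without 1 array. The share of all tested genes called lower with the block is not given here. Genes called lower numbered 1 under quantile normalization and 0 to 1 without 1 array. Among the named genes, the mean of all probe sets turned the direction of Mrps11 (-0.19), Mrpl51 (-0.34), Mrps21 (0.46) and Mrps23 (0.57). Among the same genes, without 1 array, Mrps21 ranged from -0.26 to 0.019, Mrpl33 from -0.57 to 0.20, Mrpl9 from -0.42 to 0.080 and Mrps23 from -0.21 to 0.014. Of the 9 genes called higher, Mrps11 and Mrpl27 kept their calls in all 7 fits without 1 array. The causes of these changes were not tested. Signal of every member was above background, and the number of arrays limits the precision.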
